A study of Mus musculus with 9 samples.

Results

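The genes described here encode core splicing factors and heterogeneous nuclear ribonucleoproteins (hnRNPs). They were chosen by symbol, as every gene whose name starts with Snrp, Sf3a, Sf3b or Hnrnp or is Srsf followed by a number, with pseudogene names left out. The rule found 47 of the 18194 genes represented on the array: 9 Snrp, 3 Sf3a, 6 Sf3b, 10 Srsf and 19 Hnrnp genes. Of these, 45 passed the filter on dim signals and were tested, and they are the members counted below. Snrpn, a Sm protein gene of brain, and Srsf12 did not pass, with log2 signals of 0.54 to 4.71 and 0.00 to 5.13 over the 9 arrays. Another 5 genes of the rule, Hnrnpa3, Snrpa, Snrpd1, Snrpd2 and Srsf7, have no probe set of a single symbol in the annotation and are not analysed here.

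Splicing removes introns in the spliceosome, which is built on each intron from small nuclear ribonucleoproteins (snRNPs), particles of a short RNA and its proteins. The Snrp genes encode proteins of the U1 and U2 particles and the ring of Sm proteins that most snRNPs share, and SF3a and SF3b are the protein complexes that hold U2 at the branch point of the intron. SR proteins (Srsf genes) bind exons and help splice sites to be used, and hnRNPs coat the new transcript and often oppose their use. In blood formation the machinery is known for the human genes SF3B1 and SRSF2, which are often mutated in myelodysplastic syndromes.

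Signals came from 9 Affymetrix expression arrays with RNA of sorted mouse bone marrow cells of strain FVB/NJ, negative for the leukocyte marker CD45.1 and the erythroid marker Ter119 and labelled as stromal cells. Wild-type mice (WT), leukemic recipients at the early phase (E, 1 to 5% leukemic cells) and at the medium phase (M, 5 to 50%) gave 3 arrays each, labelled as biological replicates. The purpose was to follow how expression in stromal cells changes as leukemia advances. The kind of leukemia, how recipients received it, the ages of the mice and whether animals were pooled are not given in the sources used here, and later and latent phases are not analysed here. Values are log2 MAS5 signals, set per gene by the probe set with the highest mean, and a level is never compared between genes. The 45 members were bright genes, with means of 10.49 to 14.64, and the dimmest of them lay at percentile 82.0 of all genes.

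The sorted cells did not carry the same markers in every group. Poly-A control transcripts, spiked into each RNA, had mean log2 signals (± SD, n = 3) of 9.11 ± 0.17 for WT, 9.10 ± 0.09 for E and 10.12 ± 0.29 for M. Over 8 mesenchymal stroma markers, the mean log2 signal was 7.74 to 8.09 in the WT arrays, 7.90 to 8.12 in E and 12.17 to 12.42 in M, so the labelled cell type had low marker signals in WT and E. The 8 granulocyte markers averaged 8.54 to 8.63, 9.69 to 9.82 and 12.67 to 13.07, and the 8 leukocyte markers 9.04 to 9.16, 8.61 to 8.74 and 10.07 to 10.81. In M with WT, 8 of 8 markers rose in each of these lists, and after scaling on spiked-in controls 4 of 8 leukocyte and 7 of 8 granulocyte markers did. Over 11 genes of cycling cells the mean was 13.20 to 13.30 in WT, 13.13 to 13.16 in E and 12.86, 12.85 and 12.32 in M replicates 1, 2 and 3, and 10 of 11 fell in M with WT. The 8 erythroid markers measured averaged 10.98 to 11.16 in WT, 10.70 to 10.89 in E and 10.56 to 11.53 in M. Of these, 7 were tested and 3 fell in M with WT. In M with E 3 fell (Klf1, Gata1 and Epor) and 2 rose, Slc4a1 (1.18) and Alas2 (2.88). In both rises M replicate 3 was far below the other M arrays. For Slc4a1, at 14.09, 13.99 and 12.00 in M, the M and E arrays overlapped. The erythroid mean also takes in Hba-a1, which was too dim to test, at 2.00 to 5.64 over the 9 arrays. Of the endothelial markers, 0 of 5 passed the filter on dim signals. No marker listed was at 0 in any array. In bulk RNA, fewer cells of a type and less RNA per cell cannot be told apart, and the part of these differences in the results below was not tested. The difference between 3′ and 5′ probe sets of Gapdh, a sign of RNA quality, averaged 0.073 ± 0.12 for WT, 0.075 ± 0.015 for E and 0.28 ± 0.18 for M on the log2 scale, and that of Actb 1.06 ± 0.08, 1.06 ± 0.10 and 1.17 ± 0.17 (SD, n = 3). These values were highest in M on average, and their part in the lower signals of M was not tested.

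Splicing factor genes were close to their WT signals in E and lower in M. In M with WT, 35 of the 45 members fell and 0 rose at an adjusted p under 0.05 from limma (Benjamini-Hochberg over the 9097 genes tested), where 43.5% of all genes tested fell and 25.3% rose. All Snrp genes tested (8 of 8) and all Sf3a genes (3 of 3) fell, with 5 of 6 Sf3b, 7 of 9 Srsf and 12 of 19 Hnrnp genes. The median log2 change was -0.54 for Snrp, -0.66 for Sf3a, -0.37 for Sf3b, -0.22 for Srsf and -0.31 for Hnrnp genes, and -0.35 over the 45 members against -0.19 over all genes tested. In E with WT, 0 of 45 passed, where 2.11% of all genes did.

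Bright genes as a whole moved in the same direction. Among the 4549 brightest genes of the array, 60.8% fell in M with WT, and their median change was -0.34. The 45 members fell in a larger share than these genes and by a like amount (-0.35). The 4549 genes include dimmer ones than any member, since 3281 genes were at least as bright as the dimmest member. The share that fell was higher among bright genes, at 60.8% beside 43.5% of all genes tested. It was not counted among genes as bright as the members, so the part of brightness in their larger share was not tested. Of the members, 34 lay below the median of all genes tested and 23 below that of the 4549 brightest. The 3 M arrays lay below all 3 WT arrays in 37 members, where 45.5% of all genes tested did so. Falls were moderate, since 7 members (15.6%) were at least 1.5-fold lower in M, beside 19% of all genes tested. Among the 3281 genes at least as bright as the dimmest member, 25.7% were, and their median change was -0.36. All 45 members changed in the negative direction in M with WT as deposited, where 61.5% of all genes tested and 75.7% of the 4549 brightest did. They also did so after scaling on the spike-ins, and 40 of 45 did after quantile normalization. With that normalization 30 members fell, where 51.1% of all genes did, and the members' median (-0.24) lay above that of all genes (-0.28). Scaling on the spike-ins shifted the median of all genes by -1.01 and centring on the median of the probe sets by -0.63, and with either all 45 members fell. With those scalings 79.4% and 73% of all genes fell and 10.6% and 13.9% rose.

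**Figure D1:**
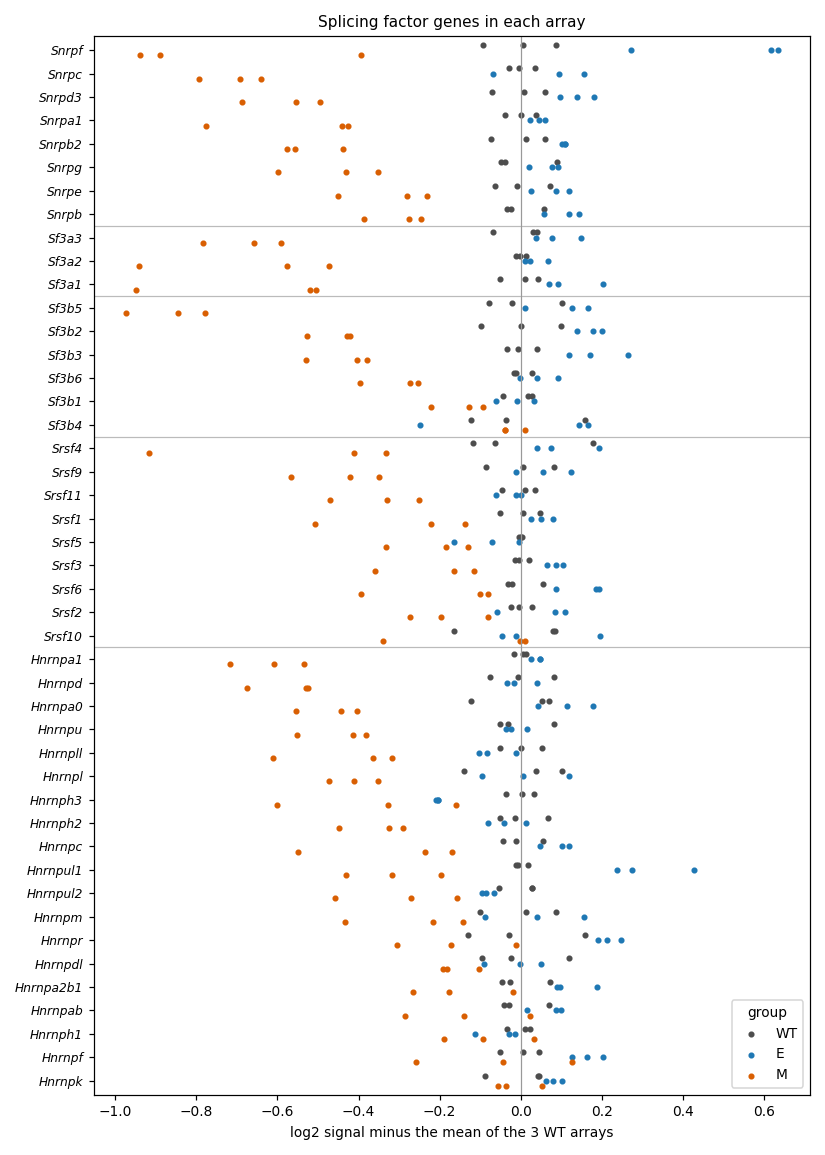
Log2 signal of each of the 45 tested splicing factor genes in each of the 9 arrays (horizontal axis, difference from the mean of the 3 WT arrays), with genes grouped by class and ordered by the change in M. Points are single arrays of WT (grey), E (blue) and M (orange); M points lie left of all WT points in 37 genes, and those of Hnrnpk, Sf3b4 and Hnrnph1 mix with them.

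Promoters of 5 members are shown because these genes span the range of change in M: Sf3a3, Snrpc, Snrpf and Hnrnpa1 have large falls within their classes and Hnrnpk the smallest change in M with WT of all members. They were chosen after the values were seen. Each stretch is the 100 bases before the annotated start of the gene (RefSeq, build GRCm38.p6), written 5′ to 3′ on the gene's strand. Capitals mark the matches, on either strand, to 4 searched motifs. These are the GC box, searched as GGGCGG, the core recognised by transcription factors of the ETS family, searched as CCGGAAG, the box bound by the factor NF-Y, searched as CCAAT, and the box near the start of some promoters, searched as TATAAA. No match overlaps another in the stretches shown.
Sf3a3, chr4:124714761-124714860, plus strand: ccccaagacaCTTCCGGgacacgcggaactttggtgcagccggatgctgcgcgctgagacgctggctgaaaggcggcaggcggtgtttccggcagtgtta
Snrpc, chr17:27839987-27840086, plus strand: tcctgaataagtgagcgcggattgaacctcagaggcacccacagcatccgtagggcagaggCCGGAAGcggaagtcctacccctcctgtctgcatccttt
Snrpf, chr10:93589659-93589758, minus strand: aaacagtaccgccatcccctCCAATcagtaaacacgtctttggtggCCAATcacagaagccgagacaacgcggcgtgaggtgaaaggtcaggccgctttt
Hnrnpa1, chr15:103240297-103240396, plus strand: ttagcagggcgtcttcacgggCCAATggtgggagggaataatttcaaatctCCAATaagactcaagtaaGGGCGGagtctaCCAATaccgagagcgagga
Hnrnpk, chr13:58402118-58402217, minus strand: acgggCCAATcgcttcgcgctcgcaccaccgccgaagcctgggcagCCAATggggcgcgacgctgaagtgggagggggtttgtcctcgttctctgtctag
Sf3a3 and Snrpc each hold 1 ETS match, Snrpf and Hnrnpk 2 NF-Y boxes each, and Hnrnpa1 3 NF-Y boxes and 1 GC box. Over the 250 bases before each start, 40 of the 45 members matched a table entry, with 53 promoters, and the ETS motif was found in 34% of these beside 14.9% of the 9592 promoters of genes tested and 6.91% of all 32851 promoters in the table. The shares with a GC box were 69.8%, 59.2% and 32.7%, with an NF-Y box 47.2%, 35.6% and 33.8%, and with a TATA box 7.55%, 6.28% and 12.4%. Among members that fell in M with WT, 16 of 35 promoters (31 genes) held the ETS motif, and among those not called 2 of 18 (9 genes). The same split was not made over all genes tested, and a link of the motif with the fall was not tested. Genes with several promoters enter these counts more than once, and a match describes letters, not a bound site.

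Of the U1 particle, 1 member was measured. Snrpc encodes U1-C, which helps U1 to pair with the start of the intron, and read 11.68, 11.71 and 11.75 in WT, 11.81, 11.87 and 11.65 in E and 11.02, 11.07 and 10.92 in M. All M arrays lay below all others, and WT and E overlapped, with a fall in M with WT of 0.71 (adjusted p = 1.06e-05), or 1.63-fold. With the mean of all its probe sets in place of the brightest, the change was -0.29 and not called (adjusted p = 0.495).

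Sm proteins form the ring around the snRNA, and 5 of their genes were tested. Snrpf, a ring subunit, read 12.80, 12.72 and 12.62 in WT, 13.33, 12.99 and 13.35 in E and 11.78, 11.83 and 12.32 in M. E arrays were the highest and M arrays the lowest, with no overlap between any groups, and M replicate 3 was nearer to WT than the other M arrays. Snrpf fell by 0.74 from WT to M (adjusted p = 0.00074) and by 1.25 from E to M (adjusted p = 1.38e-05), which is 2.37-fold and the largest difference of any member in M with E. Its change in E with WT was 0.51 (SE 0.14, adjusted p = 0.108). Snrpd3 read 13.48, 13.40 and 13.53 in WT, 13.56, 13.65 and 13.61 in E and 12.91, 12.97 and 12.78 in M. E lay just above WT and M well below both, and the fall from WT to M was 0.58 (adjusted p = 1.69e-05). With the mean of all probe sets the change of Snrpd3 turned to 0.34, which was not called (adjusted p = 0.251). Snrpg, Snrpe and Snrpb, the remaining ring genes, had smaller falls. Snrpg read 14.40, 14.41 and 14.54 in WT, 14.47, 14.54 and 14.52 in E and 14.10, 14.02 and 13.85 in M. Snrpe read 14.66, 14.71 and 14.79 in WT, 14.75, 14.81 and 14.84 in E and 14.49, 14.44 and 14.27 in M. Snrpb read 13.58, 13.59 and 13.67 in WT, 13.67, 13.76 and 13.74 in E and 13.34, 13.37 and 13.23 in M. In each, the M arrays were below all WT and E arrays, with falls from WT to M of 0.46, 0.32 and 0.30 (adjusted p = 0.000158, 0.00141 and 0.000898).

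U2-specific proteins are represented by Snrpa1 and Snrpb2, which bind a stem-loop of the U2 RNA as a pair. Snrpa1 read 13.23, 13.16 and 13.20 in WT, 13.26, 13.24 and 13.22 in E and 12.75, 12.77 and 12.42 in M. WT and E were intermixed within 0.10 of each other and M replicate 3 was the lowest array. Snrpb2 read 12.59, 12.50 and 12.64 in WT, 12.68, 12.68 and 12.69 in E and 12.14, 12.00 and 12.02 in M. Its E arrays were nearly equal (SD 0.0049) and just above WT, and M was below both. The pair fell by 0.55 and 0.52 from WT to M (adjusted p = 0.000195 and 2.44e-05). With the mean of all probe sets, the change of Snrpb2 was -0.13 and not called (adjusted p = 0.563).

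SF3a, the trimer that bridges U2 and the branch site, fell in all 3 subunits by nearly the same amount. Sf3a1, the largest subunit, read 11.06, 11.09 and 11.00 in WT, 11.12, 11.25 and 11.14 in E and 10.53, 10.55 and 10.10 in M. Sf3a2 read 12.84, 12.85 and 12.83 in WT, 12.85, 12.86 and 12.90 in E and 12.26, 12.36 and 11.90 in M. Sf3a3 read 12.17, 12.07 and 12.17 in WT, 12.21, 12.28 and 12.17 in E and 11.48, 11.54 and 11.35 in M. In each gene all M arrays lay below all WT and E arrays, and M replicate 3 was the lowest. Falls from WT to M were 0.66, 0.66 and 0.68 for Sf3a1, Sf3a2 and Sf3a3 (adjusted p = 0.000326, 0.000144 and 8.51e-06), or 1.58-, 1.58- and 1.6-fold. From E to M they were 0.78, 0.70 and 0.76.

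SF3b, the complex that clasps the branch point, was less uniform. Sf3b5, its smallest scaffold subunit, read 13.58, 13.52 and 13.70 in WT, 13.72, 13.77 and 13.61 in E and 12.75, 12.82 and 12.63 in M. M lay far below overlapping WT and E arrays, and the fall of 0.87 (adjusted p = 1.87e-06), or 1.82-fold, was the largest of any member in M with WT. The call was lost with the mean of all probe sets of Sf3b5 (adjusted p = 0.227). Sf3b2, which contacts the intron upstream of the branch point, read 12.98, 13.08 and 12.88 in WT, 13.18, 13.12 and 13.16 in E and 12.55, 12.56 and 12.45 in M. Sf3b3, a propeller-shaped scaffold protein, read 11.56, 11.53 and 11.61 in WT, 11.69, 11.74 and 11.83 in E and 11.16, 11.19 and 11.04 in M. For both, E was above WT and M below it without overlap, and the falls from WT to M were 0.46 and 0.44 (adjusted p = 8.81e-05 and 0.000199). Sf3b6, which sits at the branch adenosine, read 13.47, 13.51 and 13.46 in WT, 13.57, 13.52 and 13.48 in E and 13.20, 13.22 and 13.08 in M. It fell by 0.31 (adjusted p = 0.000707), with WT and E overlapping.

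By their brightest probe sets, Sf3b1 and Sf3b4 stood apart from the rest of SF3b in the size of the change. Differences between genes were not tested. Sf3b1, the large subunit that grips the branch helix, read 12.96, 13.03 and 13.03 in WT, 12.95, 13.00 and 13.04 in E and 12.91, 12.88 and 12.79 in M. M arrays were the lowest by a narrow margin. Its fall of 0.15 in M with WT (adjusted p = 0.0435) lost the call in 14 of 23 alternative analyses, among them those without any 1 WT or E array, without M replicate 2 or 3, and after quantile normalization (adjusted p up to 0.915). With the mean of all probe sets, Sf3b1 was called lower both in M with WT and in M with E. In that setting Sf3b5 was called in neither, and Sf3b2 and Sf3b6 were not called in M with E. Sf3b4, an RNA-binding subunit, read 11.13, 11.33 and 11.04 in WT, 10.92, 11.33 and 11.31 in E and 11.13, 11.18 and 11.13 in M. All 3 groups overlapped, and the difference of M from WT was -0.022 (SE 0.11, adjusted p = 0.871).

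Of the 9 SR protein genes tested, 7 fell in M with WT. Srsf4 read 12.21, 12.26 and 12.51 in WT, 12.37, 12.52 and 12.40 in E and 11.99, 11.92 and 11.41 in M. M replicate 3 was far below the other M arrays, all of which were under WT and E, and the fall was 0.55 (adjusted p = 0.00413). Srsf9 read 12.99, 13.09 and 13.16 in WT, 13.14, 13.21 and 13.07 in E and 12.66, 12.73 and 12.51 in M. Srsf11, which also associates with U2 proteins, read 13.11, 13.06 and 13.14 in WT, 13.04, 13.10 and 13.09 in E and 12.85, 12.77 and 12.63 in M. In both the M arrays lay below overlapping WT and E arrays, with falls of 0.45 and 0.35 (adjusted p = 0.000269 and 0.000673). By the mean of all probe sets, Srsf11 changed by -0.19 and was not called (adjusted p = 0.187).

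Srsf1, the founding member of the family, read 14.51, 14.61 and 14.57 in WT, 14.61, 14.64 and 14.59 in E and 14.43, 14.34 and 14.06 in M. Srsf3, a small SR protein that also takes part in mRNA export, read 14.15, 14.19 and 14.16 in WT, 14.26, 14.23 and 14.27 in E and 14.05, 14.00 and 13.81 in M. In both, M replicate 3 lay further from WT than the other M arrays, and no M array reached WT. They fell by 0.29 and 0.21 (adjusted p = 0.0102 and 0.0133). Srsf5 read 13.33, 13.32 and 13.33 in WT, 13.16, 13.26 and 13.32 in E and 13.20, 12.99 and 13.14 in M. WT arrays were nearly equal and above all M arrays, E overlapped with both groups, and the fall from WT to M was 0.22 (adjusted p = 0.0139), lost without M replicate 2 and after quantile normalization (adjusted p up to 0.234). Srsf2, which binds exonic enhancers of both C-rich and G-rich sequence, read 14.24, 14.26 and 14.29 in WT, 14.35, 14.37 and 14.20 in E and 14.18, 14.06 and 13.99 in M. M lay below WT by a small margin, and its fall of 0.18 (adjusted p = 0.0281) was lost in 9 alternatives, including those without any 1 WT array or without M replicate 2 or 3 (adjusted p up to 0.874).

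Srsf6 and Srsf10 did not pass in M with WT. Srsf6 read 13.50, 13.51 and 13.59 in WT, 13.62, 13.72 and 13.73 in E and 13.45, 13.43 and 13.14 in M. E lay above WT and M just below it, with a change of -0.19 from WT to M (adjusted p = 0.0566) and a fall of 0.35 from E to M (adjusted p = 0.00291). Srsf10, a splicing repressor when dephosphorylated, read 12.58, 12.58 and 12.33 in WT, 12.49, 12.69 and 12.45 in E and 12.50, 12.51 and 12.16 in M. Its groups overlapped, with 1 low array each in WT and M, and the change from WT to M was -0.11 (adjusted p = 0.384).

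Among the hnRNPs of the A, B and D type, Hnrnpa1, a repressor that binds exonic and intronic silencers, had the largest fall of the class. Hnrnpa1 read 13.10, 13.12 and 13.13 in WT, 13.14, 13.16 and 13.17 in E and 12.58, 12.40 and 12.51 in M. WT and E arrays lay within 0.10 of each other, M was clearly below, and the fall was 0.62 (adjusted p = 4.92e-06), or 1.54-fold. That is the value of its brightest probe set. On plain _at probe sets alone the change of Hnrnpa1 was -0.30 and not called (adjusted p = 0.39), and neither of its other 2 tested probe sets passed (-0.18 and -0.30). Hnrnpd, also known as AUF1, which binds AU-rich mRNAs, read 13.69, 13.76 and 13.85 in WT, 13.75, 13.81 and 13.73 in E and 13.24, 13.24 and 13.09 in M. Hnrnpa0 read 13.33, 13.16 and 13.35 in WT, 13.39, 13.46 and 13.32 in E and 12.84, 12.72 and 12.88 in M. Both had M arrays under overlapping WT and E arrays and fell by 0.58 and 0.47 (adjusted p = 1.50e-05 and 0.000155). With plain _at probe sets alone Hnrnpd lost its call (adjusted p = 0.0613).

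Close relatives of these genes did not pass in M with WT by their brightest probe sets. Hnrnpa2b1 read 14.36, 14.38 and 14.48 in WT, 14.51, 14.60 and 14.50 in E and 14.39, 14.23 and 14.14 in M. M replicate 1 lay within the WT range, and the change was -0.15 (adjusted p = 0.0702). Hnrnpab read 14.49, 14.51 and 14.60 in WT, 14.55, 14.62 and 14.63 in E and 14.56, 14.39 and 14.25 in M. Hnrnpdl read 13.88, 13.81 and 14.02 in WT, 13.81, 13.90 and 13.95 in E and 13.80, 13.71 and 13.72 in M. M and WT overlapped in Hnrnpab but not in Hnrnpdl, and their changes of -0.13 and -0.16 had adjusted p of 0.137 and 0.0554.

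Hnrnpc, which packages uridine-rich stretches of transcripts, read 14.00, 13.97 and 14.07 in WT, 14.06, 14.13 and 14.11 in E and 13.84, 13.78 and 13.46 in M. Hnrnpl, which binds CA repeats, read 12.38, 12.20 and 12.44 in WT, 12.25, 12.46 and 12.35 in E and 11.99, 11.93 and 11.87 in M. Hnrnpll, its relative and a regulator of exon use in the Ptprc (CD45) transcript of lymphocytes, read 12.98, 13.03 and 13.08 in WT, 12.95, 13.02 and 12.93 in E and 12.67, 12.72 and 12.42 in M. In all 3 genes WT and E were close and M lower without overlap, with falls of 0.32, 0.41 and 0.43 (adjusted p = 0.00743, 0.000868 and 0.000543). By the mean of all probe sets, Hnrnpc changed by -0.11 and Hnrnpl lost its call as well (adjusted p = 0.551 and 0.0598). In each of these genes that mean takes in a probe set too dim to test. The testable probe sets of Hnrnpc fell by 0.32 and 0.27, and Hnrnpl had no other testable one. Hnrnpm read 12.62, 12.69 and 12.51 in WT, 12.76, 12.52 and 12.64 in E and 12.39, 12.46 and 12.17 in M. M was just under WT and fell by 0.26 (adjusted p = 0.0233), a call lost without WT replicate 1 or 2 and after quantile normalization (adjusted p up to 0.274).

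The F and H group, which binds runs of G, was split. Hnrnph2 read 12.86, 12.94 and 12.82 in WT, 12.88, 12.79 and 12.83 in E and 12.55, 12.58 and 12.42 in M. M lay below both other groups, and the fall was 0.35 (adjusted p = 0.000514). Hnrnph3 read 10.64, 10.68 and 10.71 in WT, 10.48, 10.48 and 10.47 in E and 10.35, 10.52 and 10.08 in M. It was lower in E than in WT in every array and in M lower than in WT in every array, E and M overlapped, and the fall from WT to M was 0.36 (adjusted p = 0.00811). Hnrnph1 read 13.75, 13.71 and 13.76 in WT, 13.63, 13.71 and 13.73 in E and 13.77, 13.65 and 13.55 in M. Hnrnpf read 14.37, 14.47 and 14.43 in WT, 14.59, 14.62 and 14.55 in E and 14.55, 14.38 and 14.16 in M. In these last genes WT and M overlapped, with changes of -0.084 and -0.058 (adjusted p = 0.273 and 0.555).

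Hnrnpk, which binds C-rich RNA and DNA, had the smallest change of any member in M with WT. Hnrnpk read 14.16, 14.29 and 14.29 in WT, 14.33, 14.31 and 14.35 in E and 14.30, 14.19 and 14.21 in M. WT and M arrays were intermixed, with a difference of -0.013 (SE 0.057, adjusted p = 0.851). Hnrnpr read 13.03, 13.22 and 12.93 in WT, 13.31, 13.25 and 13.28 in E and 13.05, 12.89 and 12.76 in M. E was above WT, M replicate 1 lay within WT, and the change from WT to M was -0.16 (adjusted p = 0.122), beside a fall of 0.38 from E to M (adjusted p = 0.00261).

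Of the U group, Hnrnpu encodes a scaffold protein of the nucleus that binds RNA and chromatin, and read 14.25, 14.23 and 14.36 in WT, 14.30, 14.26 and 14.24 in E and 13.90, 13.87 and 13.73 in M. M lay under overlapping WT and E arrays, and the fall was 0.45 (adjusted p = 7.53e-05). With the mean of all probe sets the change of Hnrnpu was -0.16 and not called (adjusted p = 0.15). Hnrnpul1, its relative with a role in DNA repair, read 12.08, 12.05 and 12.05 in WT, 12.30, 12.49 and 12.33 in E and 11.63, 11.74 and 11.86 in M. E was the highest group and M the lowest with no overlap, with a change of 0.31 from WT to E (SE 0.076, adjusted p = 0.0658) and falls of 0.31 from WT to M and 0.63 from E to M (adjusted p = 0.00343 and 2.40e-05). Hnrnpul2 read 11.74, 11.74 and 11.65 in WT, 11.64, 11.62 and 11.61 in E and 11.44, 11.55 and 11.25 in M. WT was highest, E slightly under it and M lowest, and the fall from WT to M was 0.30 (adjusted p = 0.00596, and over 0.05 after quantile normalization).

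Differences between E and WT address the stage at which leukemic cells are still few. No member passed (0 of 45), and at an unadjusted p under 0.05 there were 5, all higher in E: Hnrnpr, Hnrnpul1, Sf3b2, Sf3b3 and Snrpf. Of all genes tested, 14.1% reached that level in either direction, and 579 of 9097 did so as higher in E. The smallest adjusted p was 0.0658 for Hnrnpul1. Of the members, 34 had a change above 0, where 51.5% of all genes tested did, and the median was 0.060 beside 0.0066 for all genes. The 3 E arrays lay above all 3 WT arrays in 15 members, where 15% of all genes did and 18.6% of the 4549 brightest, and below them in 2 members (Hnrnph3 and Hnrnpul2), where 14.7% did. Other settings called up to 4 members: 2 (Hnrnpul1 and Snrpf) with arrays centred on the median or without M replicate 3, 3 with WT and E fitted alone, which added Hnrnpf, and 4 with array weights (Hnrnpr, Hnrnpul1, Sf3b2 and Snrpf), all higher in E. Of all genes tested, those settings called 1.44% higher and 1.13% lower with centring, 3.11% and 6.08% without M replicate 3, 3.06% and 5.25% with WT and E alone, and 3.43% and 5.89% with array weights.

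In M with E, 37 of 45 members fell and 0 rose, where 43.9% of all genes fell and 26.1% rose. All Snrp (8 of 8) and Sf3a genes (3 of 3), 4 of 6 Sf3b, 7 of 9 Srsf and 15 of 19 Hnrnp genes fell, and the median was -0.40 beside -0.19 over all genes. This comparison shares the M arrays with M with WT, so the counts are not separate evidence. Members that did not pass were Hnrnpdl, Hnrnph1, Hnrnph3, Hnrnpk, Sf3b1, Sf3b4, Srsf10 and Srsf5. The calls of Hnrnpab, Hnrnpf and Hnrnpul2 (falls of 0.20, 0.22 and 0.21, adjusted p = 0.0335, 0.035 and 0.0304) were lost without any 1 of several arrays, E replicates 2 and 3 and M replicate 3 for each (adjusted p up to 0.0998, 0.111 and 0.323 over all alternatives). Group means ran in the order E, WT, M in 34 members and WT, E, M in 11. The first order was found in 34.5% of all genes tested and in 46.7% of the 3281 genes at least as bright as the dimmest member, and its first step, from WT to E, passed in no member.

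M replicate 3 was the lowest M array in 36 of 45 members, M replicate 2 in 6 and M replicate 1 in 3. Over all genes tested M replicate 3 was the lowest M array in 45.6%, and in 62.1% of those at least as bright as the dimmest member. The members' median difference from the WT mean was -0.32 in M replicates 1 and 2 and -0.46 in M replicate 3. The mean of the cycling cell list was also lowest in that array, at 12.32. So was that of the erythroid list, at 10.56 beside 11.27 and 11.53 in M replicates 1 and 2. The means of the mesenchymal, leukocyte, granulocyte and endothelial lists were highest in M replicate 3. The part of cell division or of the cell mixture in the members' signals was not tested. Without M replicate 3, 33 members fell in M with WT, where 43.7% of all genes tested did. Without M replicate 1, 40 members fell, where 43.4% of all genes did.

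Most members were read by more than 1 probe set, which target different stretches of the transcript. Of 139 probe sets of the 47 genes, 125 were bright enough to test, and 33 members had several of these. Tested as single probe sets, 83 fell in M with WT, 2 rose and 40 did not pass, where 39.2% of 15382 probe sets fell and 22.5% rose. Of the 80 that were not the brightest of their gene, 48 fell, 2 rose and 30 did not pass. In 17 of the 33 members the brightest probe set had a smaller fall than the median of the others, and over these members the median change was -0.31 for the brightest and -0.38 for the others.

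Within a gene, probe sets did not always move together. Srsf3 had 5 probe sets that fell by 0.21 to 0.51 and 1 (1438215_at) that rose, at 8.07, 8.13 and 7.94 in WT, 7.72, 7.45 and 8.07 in E and 8.41, 8.65 and 8.55 in M, a rise of 0.49 in M with WT (adjusted p = 0.0224). Hnrnpk had 3 probe sets that did not pass and 1 dim one (1454692_x_at) at 8.18, 7.56 and 8.12 in WT, 8.74, 8.35 and 8.04 in E and 8.45, 8.75 and 8.78 in M, a rise of 0.71 (adjusted p = 0.0121). In M with E, 84 probe sets fell and 4 rose, where 39.2% and 23.6% did. The 4 were that of Srsf3 (0.79), 2 of Hnrnpu (1434391_at, 0.56, and 1434390_at, 0.54) and 1 of Srsf11 (1439095_at, 0.96). Those genes also had other probe sets that fell in the same comparison. Each of these rises is smaller than the shift of -1.01 that spike-in scaling gives to all genes. Which transcript forms the deviating probe sets detect was not tested.

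Some members that did not pass by their brightest probe set fell by another. Hnrnpf fell by 0.58 and 0.64 in M with WT on 1423382_a_at and 1450963_at, and changed by -0.058 and 0.037 on its other probe sets. Srsf6 fell by 0.52, 0.30 and 0.64 on the 3 probe sets below its brightest. Hnrnpab fell on 5 of 7 probe sets, by 0.20 to 0.85. Hnrnpdl fell by 0.53 and 0.45 on 1449039_a_at and 1420093_s_at, and did not pass on its others, with changes of -0.27 to 0.11. Among Srsf1 probe sets the falls ranged from 0.29 to 0.79, and among those of Snrpa1 from 0.55 to 1.17, with all of these called. Hnrnpa2b1 had 4 probe sets with changes of -0.15 to 0.17 in M with WT, and none passed.

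**Figure D2:**
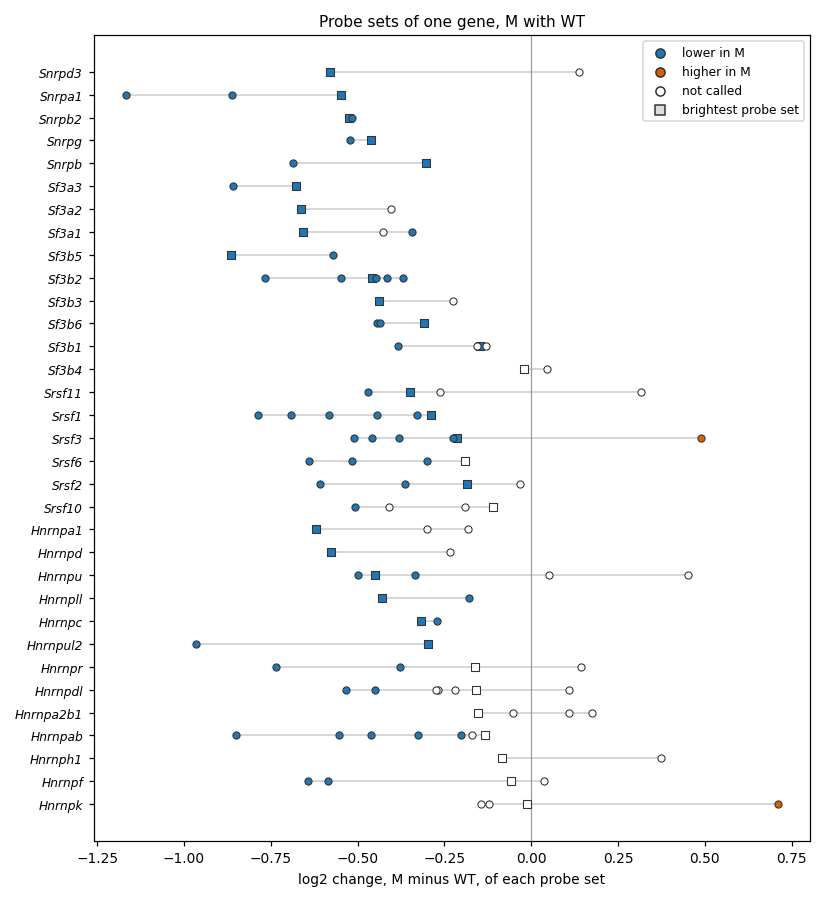
Log2 change in M with WT (horizontal axis) of each bright probe set of the 33 members with several, 1 row per gene, with squares for the brightest probe set and circles for the others. Blue marks are lower in M, orange higher and white not called at an adjusted p under 0.05; orange marks, both smaller than the shift spike-in scaling gives, occur in Srsf3 (0.49) and Hnrnpk (0.71), and rows such as Hnrnpf and Hnrnpu hold marks far apart.

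The remaining splicing machinery was followed with 166 genes in 11 lists, of which 152 were measured and 142 tested. In E with WT, 0 of 142 passed in limma and 3 had an unadjusted p under 0.05 (median 0.030). In M with WT 102 fell, 6 rose and 34 did not pass, with a median of -0.44, where 43.5% of all genes tested fell and 25.3% rose (median -0.19) and 60.8% of the 4549 brightest fell. In M with E 107 fell and 5 rose, with a median of -0.49. All 4 tested genes of U1 and its Luc7-like partners fell, with 11 of 14 of U2 recruitment, 16 of 18 of U5 and the tri-snRNP, 16 of 16 of the Prp19 complex and 5 of 10 of the catalytic and late factors. In snRNP assembly, 11 of 11 genes of the SMN complex and Sm assembly and 8 of 9 Lsm genes fell.

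Snrnp70, the U1 protein that binds the first loop of U1 RNA, read 11.24, 11.15 and 11.20 in WT, 11.23, 11.26 and 11.21 in E and 10.18, 10.51 and 10.01 in M. M was lower in every array, and the fall was 0.96 (adjusted p = 1.80e-05). Snrnp200, the helicase that unwinds U4 from U6, read 12.62, 12.61 and 12.65 in WT, 12.73, 12.77 and 12.78 in E and 11.96, 12.02 and 11.79 in M. Its fall was 0.71 (adjusted p = 4.54e-06), again with no overlap. Other called genes with the smallest p of their lists were U2af1l4 and Phf5a of U2 recruitment (falls of 0.78 and 0.63), Luc7l3 (0.39), Snrnp27 of the tri-snRNP (0.55), Dhx16 and Cwc22 of the catalytic factors (0.83 and 0.40), Bcas2 and Rbm22 of the Prp19 complex (0.68 and 0.71), Lsm4 and Lsm3 (0.91 and 0.68), and Gemin5 and Gemin8 of the SMN complex (0.94 and 0.87). In the minor spliceosome, which removes a rare class of introns, 5 of 8 fell, among them Scnm1 (0.81) and Zcrb1 (0.55), and 1 rose, Rnpc3 (0.31, adjusted p = 0.0484).

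Regulators of splicing moved in both directions as deposited. Of the 6 rises among the other splicing genes, 5 were also called after quantile normalization, with changes of 0.69 for Clk1, 0.48 for Clk4, 0.37 for Ptbp2, 1.19 for Celf2 and 2.04 for Mbnl2, while Rnpc3 was not (0.30, adjusted p = 0.0622). Qk and Rbm39, chosen after their values were seen, passed as higher there too. Spike-in scaling and centring shift all genes in M by the same amount (-1.01 and -0.63). With spike-in scaling Rnpc3, Clk1, Clk4 and Ptbp2 were called lower, with changes of -0.70, -0.46, -0.52 and -0.57 (adjusted p = 0.00151, 0.0252, 0.0174 and 0.00978). Of the 6 genes 1, Mbnl2, was called higher there (0.95). With centring, Mbnl2 and Celf2 were called higher (1.34 and 0.53) and the others lay below 0. Of those, Rnpc3 was called lower (-0.31, adjusted p = 0.0352). Of 16 genes for SR protein kinases, their import and relatives, 9 fell and 2 rose in M with WT. Srpk1, which phosphorylates SR proteins in the cytoplasm, read 11.55, 11.47 and 11.58 in WT, 11.64, 11.55 and 11.62 in E and 10.74, 10.69 and 10.74 in M. Clk1, a nuclear SR protein kinase, read 11.78, 11.56 and 11.69 in WT, 11.43, 11.49 and 11.64 in E and 12.31, 12.19 and 12.16 in M. The signals of Srpk1 were lowest in M and those of Clk1 highest, without overlap, and Srpk1 fell by 0.81 (adjusted p = 1.08e-06) while Clk1 rose by 0.55 (adjusted p = 0.000125). Clk4, a kinase of the same family, rose by 0.49 (adjusted p = 0.000705), and Tnpo3, the importer of SR proteins, fell by 0.51 (adjusted p = 2.46e-05). Of 33 other RNA-binding regulators, 16 fell and 3 rose. Those that rose were Mbnl2, a muscleblind protein, Celf2 and the neuronal regulator Ptbp2.

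Mbnl2 read 10.03, 9.98 and 9.98 in WT, 9.74, 9.74 and 9.78 in E and 11.79, 11.73 and 12.36 in M. Its M arrays were far above the others, and the rise was 1.96 (adjusted p = 4.39e-07). Celf2 and Ptbp2 rose by 1.15 and 0.44 (adjusted p = 9.53e-06 and 0.00433), while Ptbp1 and Pspc1 fell by 0.63 and 0.72 (adjusted p = 3.45e-05 and 3.58e-06). Of 3 exon junction complex genes 1 fell, Rbm8a (0.59).

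**Figure D3:**
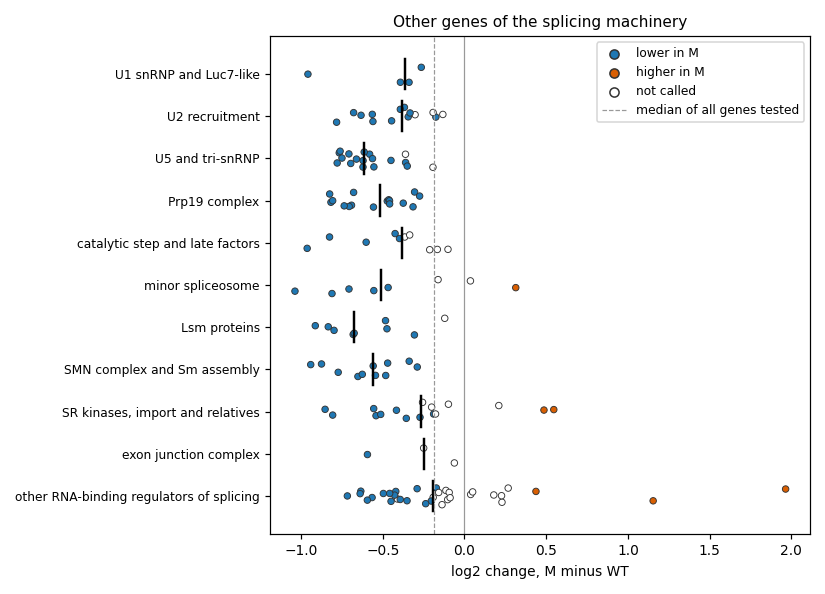
Log2 change in M with WT (horizontal axis) of the 142 tested genes of the wider splicing machinery, 1 point per gene, in 11 lists, with a bar at each list's median and a dashed line at the median of all genes tested (-0.19). Blue points fell, orange points rose and white points did not pass; the orange points, of which only Mbnl2 is still called higher with spike-in scaling, are Rnpc3, Clk1, Clk4, Ptbp2, Celf2 and Mbnl2, the last at 1.96.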

How the data were processed

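RNA of 9 sorted cell samples, 3 per group, had been hybridised to Affymetrix arrays after 3′ labelling, per the labels' protocols. The authors deposited MAS5 signals on a log2 scale; MAS5 is named in the submitters' processing notes, and its version is not given in the sources used here. Of 45101 probe sets, 34958 carried 1 symbol; 932 with several and 9211 not listed were left out. For each gene the probe set of highest mean was used, and the 9097 of 18194 genes at or above the median mean (6.83) entered a limma 3.58.1 fit run under R 4.3.3 (3 groups, intensity trend, Benjamini-Hochberg, called under 0.05). SE values are the model's. The fit was tested on simulated data. The labels call arrays of a group biological replicates, so p-values measure their spread, pooled over the 3 groups, and the number of arrays limits precision.

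The members and lists were chosen with earlier results of these data known. Array values are given for the 3 highest and lowest changes per class and comparison and for a fixed set, and in the end for every member. Of the other splicing genes, up to 2 called genes with the smallest p per list and direction are named, and Ptbp2 was added after its values were seen. Motifs were searched with both strands read. Tried as alternatives were 2 pseudocounts (1 and 64), filters, scalings, fit options, probe set rules, a replicate block and leaving out each array, 23 in all; single probe sets and the background over the 4549 brightest genes were added after the data were seen.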

Additional observations from a re-analysis of the deposited data

How the results depend on the processing

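Counts of called members in M with WT and M with E stayed within 1.5 times of 35 and 37 under all 23 alternatives. Leaving out each array in turn gave 32 to 40 in M with WT, 34 to 39 in M with E and 0 to 2 in E with WT. In those fits 39.5% to 43.7% of all genes fell in M with WT, and 39.5% to 43.7% in M with E. In E with WT the count of 0 became 2 with arrays centred on the median, 4 with array weights, 3 with WT and E fitted alone and 2 without M replicate 3, where 1.44%, 3.43%, 3.06% and 3.11% of all genes were called higher. The mean of all probe sets of a gene also takes in those too dim to test. With it, among members that had been called, changes turned to 0.34 for Snrpd3 in M with WT. In M with E they turned to 0.084 for Hnrnpa2b1, 0.034 for Hnrnpc, 0.47 for Snrpc and 0.092 for Srsf11. With plain _at probe sets, which left 38 members, M with E changes turned to 0.097 for Hnrnpa1, 0.22 for Hnrnpa2b1 and 0.13 for Hnrnpr. None of these 8 turned values passed. Counting also members that had not been called, 40 of 45 lay below 0 in M with WT and 40 in M with E by that mean. With plain _at probe sets 36 and 34 of 38 did. After quantile normalization Hnrnph1 passed as higher in M with E (0.13, adjusted p = 0.0429). The cause of these changes was not tested. Of 35 falls in M with WT, 20 kept their call in every alternative, as did 15 of 37 in M with E. With the replicate number as a block, 34 members passed in M with WT, 36 in M with E and 0 in E with WT. In that fit 42.3% of all genes fell in M with WT and 43% in M with E. Sf3b1 lost its call in M with WT and Hnrnpab in M with E. Same-numbered arrays did not deviate together (correlations of -0.098 to 0.084, and 6 of 18 best with their own number). Among the other splicing genes in M with WT, 103 fell and 7 rose after quantile normalization, 134 and 2 with centring and 140 and 1 with spike-in scaling, beside 102 and 6 as deposited.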
